A study of Mus musculus with 6 samples.

Results

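OT-I cells, mouse CD8+ T cells whose transgenic receptor recognises an ovalbumin peptide in MHC class I, were compared after 48 hours of culture with that peptide and either with vehicle or with cells that the submitters call TANs. Both groups are labelled wild type, carry the OT-I receptor and received the peptide OVA257-264, and they differ in the added cells. TANs were CD11b+Ly6G+ cells with low Ly6C, a surface pattern of neutrophils, sorted from the spleen, not the tumour, of mice bearing LLC tumours (Lewis lung carcinoma). RNA was sequenced from T cells purified at the end of the culture. Each group had 2 libraries, which are 4 of the 6 libraries of the series. The labels give no age or sex of the mice and no ratio of TANs to T cells, and leave unsaid whether replicate libraries stem from different cultures or mice. The p-values therefore measure the spread between these libraries, which may be technical. Of 25638 genes in the deposited table, the 10254 with at least 1 FPKM (counted reads scaled to the length of the gene and to the total of the library) in at least 2 of the 4 libraries are described. Slc2a9 passed narrowly with 0.397 and 0.993 FPKM with vehicle and 1.0004 and 1.17 with TAN. Zfp433, with 0.99998 and 1.22 FPKM with vehicle and 0.809 and 0.824 with TAN, lay just outside.

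A naive CD8+ T cell that meets its peptide turns on immediate-early factors such as the Egr proteins, secretes interleukin-2, divides, and acquires granzymes, perforin and interferon-gamma. Interferons act back on T cells through STAT proteins and induce antiviral proteins, immunity-related GTPases and MHC class I genes. The cytokines around the cell set which further factors it expresses, such as Blimp-1 (Prdm1) in terminal effector cells.

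The libraries had the identity of activated CD8+ T cells. Of 14 CD8 T cell markers listed, the 11 found in the deposited table were all expressed, among them Cd8a with 135 to 152 FPKM, Cd3e with 102 to 104 FPKM and Gzmb with 4269 to 4731 FPKM. Trac, Trbc1 and Trbc2 were not in the table under these names. All 30 neutrophil markers stayed under 1 FPKM in each of the 4 libraries, 15 of them at 0 throughout, and their summed level was 0.597 and 0.767 FPKM with vehicle and 0.575 and 0.695 FPKM with TAN. Of these markers, S100a8, S100a9 and Ly6g were at 0 in all 4 libraries. Erythroid and platelet markers (13 genes) and epithelial and tumour cell markers (10 genes) also stayed under 1 FPKM. Of 14 B cell genes listed, 11 were in the table, and Ighm, Ighd and Igkc were not found under these names. Those in the table were present at low levels in both groups. Their summed level was 12.6 and 13.8 FPKM with vehicle and 11.8 and 13.9 FPKM with TAN, and none of the 6 tested passed the test. Counted reads, read from the steps between low values, numbered 44.8 to 45.2 M per library, so that a single read adds 0.0111 to 0.0112 FPKM to a 2 kb gene.

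After co-culture with TANs, 1277 genes were higher and 1483 lower than with vehicle at a Benjamini-Hochberg adjusted p under 0.05, which is 26.9% of those tested (12.5% higher and 14.5% lower). Over all levels of expression these percentages are the background against which the counts of each gene group are read. The background is higher for a group of highly expressed genes and lower for one of low expression, as given below. The differences were small: the median absolute log2 change of the called genes was 0.22, 1160 of the 2760 changed by less than 0.2, and only 18 rose and 6 fell by at least 1. A log2 change here is on the scale log2(FPKM + 1), which understates the change of genes near 1 FPKM. In 64.9% of tested genes both TAN libraries lay outside the range of both vehicle libraries, so that an absence of overlap alone says little. The share called grew with expression, from 15.1% of genes under 5 FPKM to 42.2% of those at 100 FPKM or more, while the median standard error fell from 0.10 to 0.025 and the median size of a called change from 0.45 to 0.13. The first principal component of the 4 libraries held 73.5% of the variance and separated TAN from vehicle. Without vehicle replicate 1 or 2, 715 and 788 genes were higher and 822 and 960 lower. Without TAN replicate 1 or 2, 835 and 810 were higher and 1122 and 996 lower. In all, 1135 genes were called in each of these fits and with all 4 libraries.

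**Figure D1:**
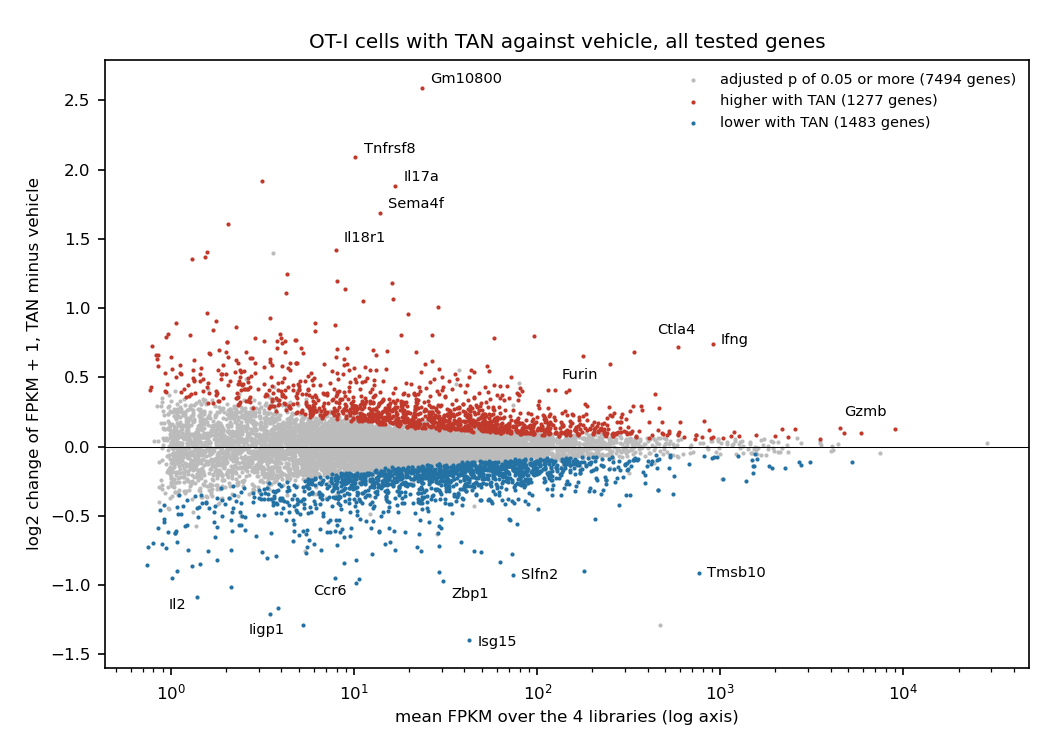
Log2 change of FPKM + 1, TAN minus vehicle, of 10254 genes against their mean FPKM over the 4 libraries (log axis); red and blue points passed an adjusted p of 0.05. Most called genes lie within 0.5 of 0, with Gm10800, Tnfrsf8, Gm10722 (not labelled) and Il17a at the top and Isg15 at the bottom.

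The largest rises among genes of at least 5 FPKM included a type 17 cytokine pair, receptors of the TNF and interleukin-18 systems and structural proteins of membrane and nucleus. Tnfrsf8, which encodes the TNF receptor family member CD30 (chromosome 4, 145267137 to 145315164, GRCm38), was at 3.41 and 3.07 FPKM with vehicle and 16.7 and 17.4 with TAN, with a log2 change of 2.09 ± 0.068 (SE) and an adjusted p of 1.33e-06 by limma. Il17a, the gene of interleukin-17A (chromosome 1, 20730905 to 20734496), was at 6.88 and 6.29 FPKM with vehicle and 26.998 and 26.996 with TAN, with a log2 change of 1.89 ± 0.057 (SE) and an adjusted p of 9.35e-07 by limma. Its neighbour Il17f was at 1.67 and 3.02 FPKM with vehicle and 6.67 and 5.50 with TAN (1.11). In all 3 genes the groups were clearly apart, and for Il17f the vehicle libraries differed most from each other. Il18r1, the ligand-binding chain of the interleukin-18 receptor (chromosome 1, 40465552 to 40500854), was at 3.52 and 4.20 FPKM with vehicle and 12.2 and 11.7 with TAN, with a log2 change of 1.42 ± 0.082 (SE) and an adjusted p of 3.4e-05 by limma. Sema4f, a transmembrane semaphorin (chromosome 6, 82911885 to 82939769), was at 6.05 and 6.01 FPKM with vehicle and 21.7 and 21.7 with TAN, with a log2 change of 1.69 ± 0.053 (SE) and an adjusted p of 1e-06 by limma. Emp1, an epithelial membrane protein gene of the tetraspan type, rose from 2.12 ± 0.0873 to 6.42 ± 0.813 FPKM (SD, n = 2), Atp2b4, a plasma membrane calcium pump, from 4.52 ± 0.265 to 11.6 ± 0.168 FPKM, and Lmna, the A-type lamin gene of the nuclear envelope, from 5.15 ± 0.278 to 12.6 ± 0.422 FPKM. Outside the lists, Ttc39c rose 2.40-fold in mean FPKM, Sdcbp2, a syntenin gene, 2.21-fold, Tnip3, whose product binds the NF-kappaB inhibitor A20, 2.07-fold and Dennd5a, a Rab exchange factor gene, 2.01-fold. Il17f lost its call with no filter on low values (adjusted p = 0.091).

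The largest rise of all was that of the predicted gene Gm10800 (chromosome 2, 98666547 to 98667301), at 5.99 and 5.96 FPKM with vehicle and 41.6 and 40.6 with TAN, with a log2 change of 2.59 ± 0.047 (SE) and an adjusted p of 9.35e-08 by limma. Gm10722, another predicted gene, was at 0.617 and 0.815 FPKM with vehicle and 6.19 and 4.84 with TAN (1.92). Of the 50-base words in the annotated transcripts of Gm10800, 27.2% also occur in transcripts of other genes, and 63.0% of those of Gm10722, so that reads shared among these copies leave the value of each uncertain. Among the genes that share such words with either of them, Gm10718 was at 1.25 and 1.10 FPKM with vehicle and 1.96 and 10.1 FPKM with TAN and did not pass the test (adjusted p = 0.0633), with TAN replicate 2 far above the other 3 libraries. AC153498.1, listed under a clone-based name, was at 6.95 and 6.91 FPKM with vehicle and 15.4 and 15.5 with TAN (1.05).

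Falls were led by interferon-stimulated genes. Isg15, a ubiquitin-like modifier gene induced by interferon (chromosome 4, 156199424 to 156200818), was at 60.8 and 63.6 FPKM with vehicle and 23.1 and 22.9 with TAN, with a log2 change of -1.40 ± 0.038 (SE) and an adjusted p of 6.22e-07 by limma, and its level was 2.70-fold lower with TAN. Iigp1, an immunity-related GTPase gene, was at 7.62 and 8.14 FPKM with vehicle and 2.93 and 2.35 with TAN (-1.29). Mx2, the gene of an antiviral dynamin-like GTPase, was at 5.17 and 5.26 FPKM with vehicle and 1.51 and 1.88 with TAN (-1.21). Zbp1, which encodes a sensor of Z-form nucleic acids, was at 39.2 and 42.6 FPKM with vehicle and 20.5 and 20.2 with TAN (-0.97). In each of these the TAN libraries were close to each other and well under both vehicle libraries. Slfn2, a Schlafen gene linked to T cell quiescence (chromosome 11, 83065112 to 83070678), fell from 96.5 ± 3.02 to 50.2 ± 1.22 FPKM (-0.93 ± 0.035). Outside the interferon system, Tmsb10, which encodes the actin-binding thymosin beta 10 (chromosome 6, 72957347 to 72958748), was at 999 and 987 FPKM with vehicle and 530.5 and 526 with TAN, with a log2 change of -0.91 ± 0.018 (SE) and an adjusted p of 9.48e-08 by limma. Of the 50-base words of Tmsb10, 27.0% also occur in other genes, Gm9844 first, so that its value is uncertain as that of Gm10800 is. Gm9844, whose transcript shares 60.8% of its 50-base words with other genes, Tmsb10 first among them, fell as well (-0.98). Ccr6, the receptor of the chemokine CCL20, fell from 14.4 ± 1.70 to 6.93 ± 0.386 FPKM, Lad1, the gene of an anchoring filament protein, from 38.4 ± 0.621 to 19.99 ± 0.551 FPKM, and Trbv12-1, a variable segment of the receptor beta chain, from 233 ± 15.1 to 125 ± 11.1 FPKM. Ifi206, Mndal and Egr1 were also among the 15 largest falls, beside the predicted genes Gm10031 and Gm21887, the latter at 96.2 and 64.5 FPKM with vehicle and 46.9 and 41.01 with TAN. Gm21887 lost its call with no filter on low values (adjusted p = 0.123). Gm21887 did not pass with no variance trend (adjusted p = 0.0611). Ifi206 (25.6% of words), Mndal (19.6%), Gm10031 (88.8%) and Gm21887 (59.7%) also share words with other genes, and their values are uncertain for the same reason as that of Gm10800.

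**Figure D2:**
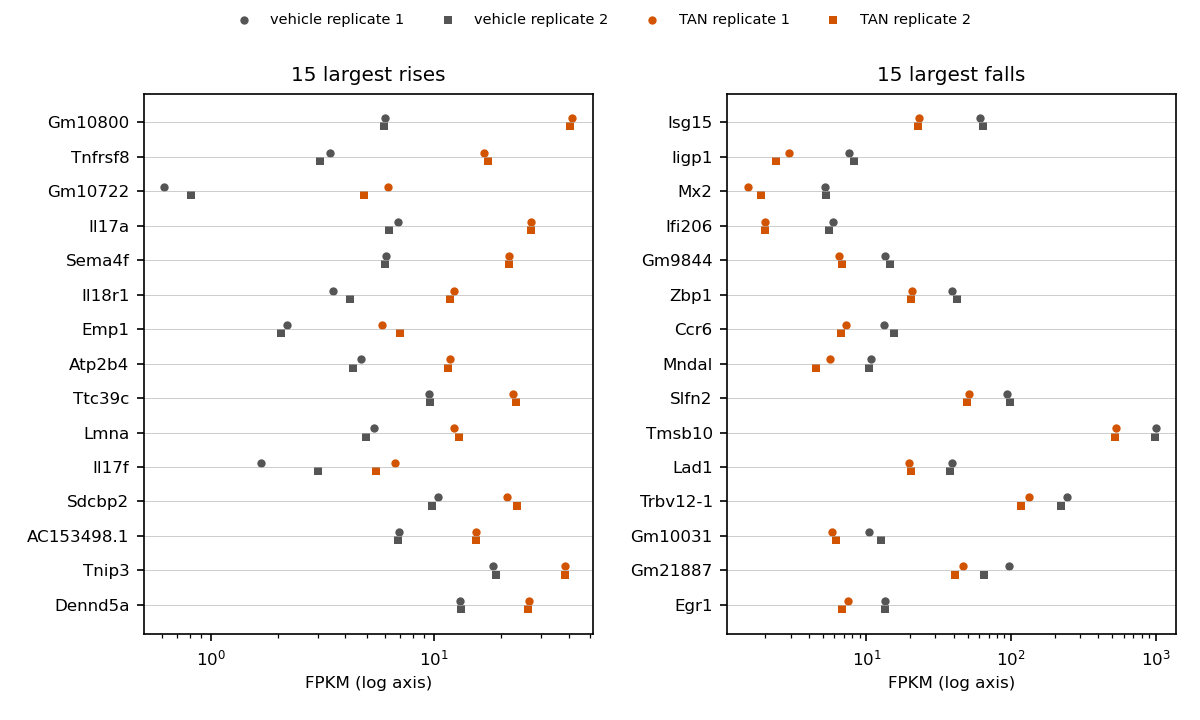
FPKM in each library (log axis; circles replicate 1, squares replicate 2; grey vehicle, orange TAN) of the 15 genes with the largest rise and the 15 with the largest fall among called genes that averaged 5 FPKM or more in one group. In all 30, which were picked for large called changes, the libraries of the groups do not overlap, as in 64.9% of all genes tested. Il17f and Gm21887 show the widest spread within vehicle.

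Promoters were searched for short motifs, with windows from 250 bases before to 50 bases after the RefSeq transcription start (GRCm38.p6), available for 8042 of the tested genes. The interferon-stimulated response element, to which STAT and IRF proteins bind, was searched on either strand as GAAA followed, after any 2 bases, by a second GAAA, and matched in 3.22% of all 8042 promoters. Among 80 genes that fell by at least 0.5 it matched in 17 (21.2%), and among 96 that rose by at least 0.5 in 2 (2.08%). Of the interferon-inducible GTPase and Ifi200 list 12 of 16 promoters held it, and of the list of interferon-stimulated genes 12 of 29. The AP-1 site TGANTCA matched in 4.25% of all promoters, in 13.8% of those of the 80 genes that fell and in 14.6% of those of the 96 that rose. The gamma-activated sequence, as TTCNNNGAA, was found in 563 of the 8042, in 8 of the 80 and in 7.29% of the 96. The ATF4 composite element, as TGATGNAA, was found in 2.16% of all, in 2 of the 80 and in 3.12% of the 96. The NF-kappaB site GGGANNNCC was found in 1931 of the 8042, in 22.5% of the 80 and in 22.9% of the 96. A match describes letters only, matches of different motifs can overlap, and no test was made of these shares. Promoters of 3 genes that fell, chosen after their values were seen, are shown with the interferon-stimulated response element in capitals (overlapping matches merged), since they stand for the ubiquitin-like, guanylate-binding and immunity-related GTPase branches, each 5′ to 3′ on the strand of the gene.
Isg15 (chr4:156200769-156201068, minus strand): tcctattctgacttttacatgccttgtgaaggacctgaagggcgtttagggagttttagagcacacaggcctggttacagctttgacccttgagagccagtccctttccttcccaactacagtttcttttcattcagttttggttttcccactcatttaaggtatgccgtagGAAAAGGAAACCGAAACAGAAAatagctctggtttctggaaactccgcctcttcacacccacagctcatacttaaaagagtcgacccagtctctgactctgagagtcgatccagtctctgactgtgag
Gbp2 (chr3:142620413-142620712, plus strand): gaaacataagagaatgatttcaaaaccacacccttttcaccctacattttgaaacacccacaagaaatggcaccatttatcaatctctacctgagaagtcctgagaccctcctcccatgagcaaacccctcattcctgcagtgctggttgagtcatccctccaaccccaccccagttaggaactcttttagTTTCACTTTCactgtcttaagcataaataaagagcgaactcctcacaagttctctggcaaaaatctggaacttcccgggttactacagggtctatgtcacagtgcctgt
Tgtp2 (chr11:49064163-49064462, minus strand): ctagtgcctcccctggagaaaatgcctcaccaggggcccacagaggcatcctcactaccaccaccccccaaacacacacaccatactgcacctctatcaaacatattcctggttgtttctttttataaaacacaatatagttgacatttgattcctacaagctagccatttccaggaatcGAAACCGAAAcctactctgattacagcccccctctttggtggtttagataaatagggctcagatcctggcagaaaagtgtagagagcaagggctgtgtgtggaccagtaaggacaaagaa
Of the 15 largest rises 11 had a promoter, and 5 of these held an AP-1 site. Of the 15 largest falls 7 had a promoter, and 1 held the site. Promoters of 2 of the 5 genes that rose and hold it are shown with the AP-1 site in capitals.
Tnfrsf8 (chr4:145315115-145315414, minus strand): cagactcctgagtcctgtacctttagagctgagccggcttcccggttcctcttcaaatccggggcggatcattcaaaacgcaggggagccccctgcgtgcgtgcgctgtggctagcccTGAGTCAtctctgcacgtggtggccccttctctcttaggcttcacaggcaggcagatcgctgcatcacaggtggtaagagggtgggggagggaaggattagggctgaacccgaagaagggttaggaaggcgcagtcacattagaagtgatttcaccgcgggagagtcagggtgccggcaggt
Il17a (chr1:20730655-20730954, plus strand): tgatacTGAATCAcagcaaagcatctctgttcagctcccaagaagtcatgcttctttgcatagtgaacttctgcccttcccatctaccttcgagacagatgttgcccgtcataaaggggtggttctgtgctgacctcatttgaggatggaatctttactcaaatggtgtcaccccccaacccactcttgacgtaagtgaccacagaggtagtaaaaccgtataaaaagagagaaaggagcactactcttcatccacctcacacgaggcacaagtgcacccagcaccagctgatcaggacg
The capitals in Gbp2 are the reverse complement of the motif. Gbp2, which fell, also holds an AP-1 site (TGAGTCA) 102 bases before the start, left in small letters. The matches in Isg15 begin 78, 72 and 66 bases before the start, that of Gbp2 59 and that of Tgtp2 70 bases before it, and the AP-1 matches 132 bases before that of Tnfrsf8 and 244 bases before that of Il17a.

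**Figure D3:**
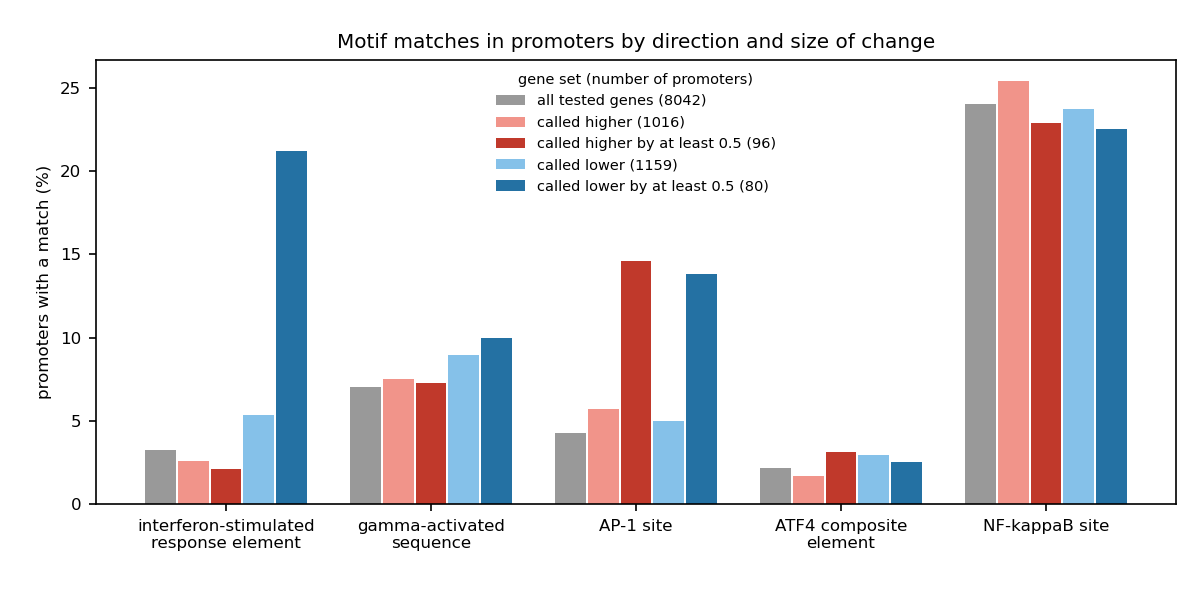
Share of promoters with a match (%, vertical axis) for 5 motifs, in all tested genes (grey), genes called higher (light red), higher by at least 0.5 (dark red), called lower (light blue) and lower by at least 0.5 (dark blue). The share with an interferon-stimulated response element is 21.2% in the last group and 2.08% in the group higher by at least 0.5, while AP-1 sites are at 13.8% and 14.6%.

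In the gene groups that follow, every gene given with its value in each library had both TAN libraries on one side of both vehicle libraries, except Gapdh. The same held in 64.9% of all genes tested. Interferon-stimulated genes were mostly lower. Of 40 tested, 31 fell and 2 rose, with a median log2 change of -0.37 beside -0.0053 over all genes tested, and 19 of the falls were called in every one of the alternative settings run. Beside Isg15, Mx2 and Zbp1, Mx1, the second antiviral dynamin-like gene, was at 3.69 and 2.65 FPKM with vehicle and 1.01 and 1.09 with TAN (-1.01 ± 0.13). Bst2, the gene of tetherin and the member with the highest level, was at 255 and 263 FPKM with vehicle and 218 and 212 with TAN (-0.27 ± 0.026). Its TAN libraries both lay under both vehicle libraries, as those of Mx1 did. The exceptions that rose were Ifitm3, an antiviral membrane protein gene (0.27), and Samhd1 (0.11), which encodes a nucleotide hydrolase. Ifitm3, Samhd1 and Mx1 lost their calls with no filter on low values (adjusted p = 0.115, 0.0922 and 0.053). Ifitm3 and Samhd1 did not pass with no variance trend (adjusted p = 0.0618 and 0.126). Ifitm3 and Samhd1 lost their calls without vehicle replicate 1 (adjusted p = 0.0725 and 0.135). Ifitm3 did not pass without TAN replicate 2 (adjusted p = 0.0511). Samhd1 lost its call without vehicle replicate 2 (adjusted p = 0.0859). Samhd1 did not pass without TAN replicate 1 (adjusted p = 0.164).

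Genes of the GTPase and Ifi200 families had the lowest median of all lists, -0.62, with 18 of 23 tested lower and none higher. Beside Iigp1, Ifi206 and Mndal, Ifi213, an Ifi200 gene, was at 1.82 and 1.57 FPKM with vehicle and 0.616 and 0.298 with TAN (-0.90 ± 0.14). Igtp, an immunity-related GTPase gene with the highest level of the list, was at 102 and 103 FPKM with vehicle and 97.5 and 92.4 with TAN (-0.12 ± 0.033). Gbp2, whose promoter is printed above, was at 27.7 and 27.6 FPKM with vehicle and 16.96 and 15.7 with TAN (-0.73 ± 0.050). Tgtp2 was at 7.01 and 7.16 FPKM with vehicle and 3.63 and 4.17 with TAN (-0.72 ± 0.079). The change of Igtp was the smallest of these. Members of these families are close relatives, and reads that they share could have been assigned to either. MHC class I and antigen processing genes moved less: 13 of 23 fell and none rose, with a median of -0.12. Tap1, a subunit of the peptide transporter, was at 249 and 251 FPKM with vehicle and 196 and 197 with TAN (-0.34 ± 0.022). H2-T23 fell from 289 to 242 FPKM and H2-Q4 from 231 to 195 FPKM, while H2-D1, the highest member, did not pass (-0.061 ± 0.025, adjusted p = 0.111). Of 18 genes of interferon receptors and their signalling, 4 fell and 2 rose, with a median of -0.051: the factor genes Irf1 (82.6 to 57.05 FPKM, -0.53 ± 0.033) and Irf8 (359 to 281 FPKM, -0.35 ± 0.020) fell, and Ifngr1, the binding chain of the interferon-gamma receptor, rose from 49.9 to 58.8 FPKM (0.23 ± 0.034). Of 10 Schlafen and Ly6 genes, 4 fell and 1 rose, with a median of -0.26: Slfn1 and Slfn8 followed Slfn2 (-0.75 and -0.49), Ly6c2 fell by 0.38, and Ly6e was slightly higher (0.11). Ly6e, Ifi213 and Igtp lost their calls with no filter on low values (adjusted p = 0.056, 0.0541 and 0.135). Ly6e and Igtp did not pass with no variance trend (adjusted p = 0.104 and 0.14). Igtp lost its call with quantile normalisation (adjusted p = 0.0563). Igtp did not pass without vehicle replicate 1 (adjusted p = 0.0999). Igtp lost its call without vehicle replicate 2 (adjusted p = 0.132). Igtp did not pass without TAN replicate 2 (adjusted p = 0.182).

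Cytokine genes moved in both directions, 8 higher and 7 lower of 20 tested, with a median of 0.017 that was -0.0071 among genes with a mean of at least 5 FPKM. Ifng, the gene of interferon-gamma, was at 677 and 683 FPKM with vehicle and 1126 and 1147 with TAN, with a log2 change of 0.74 ± 0.018 (SE) and an adjusted p of 3.7e-07 by limma. Beside Il17a and Il17f, the genes of interleukins 22 and 24 rose. Il22 was at 2.53 and 2.77 FPKM with vehicle and 5.68 and 4.93 with TAN, though 41.0% of its 50-base words occur in other genes, Iltifb first. Il24 was at 2.01 and 2.13 FPKM with vehicle and 4.90 and 4.77 with TAN. Il2, the gene of the main T cell growth factor, was at 2.11 and 2.38 FPKM with vehicle and 0.682 and 0.390 with TAN, with a log2 change of -1.08 ± 0.13 (SE) and an adjusted p of 0.000807 by limma. Csf2, which encodes GM-CSF, was at 9.01 and 9.26 FPKM with vehicle and 6.15 and 5.13 with TAN (-0.61 ± 0.083). Il3 and Ltb fell by 0.23 and 0.22, and Mif, the member with the highest level, did not pass (0.036 ± 0.020, adjusted p = 0.229). Csf2, Il3 and Ltb lost their calls with no filter on low values (adjusted p = 0.0564, 0.11 and 0.162). Il3 and Ltb did not pass with no variance trend (adjusted p = 0.0698 and 0.1). Il3 and Ltb lost their calls without vehicle replicate 2 (adjusted p = 0.0702 and 0.115). Il3 and Ltb did not pass without TAN replicate 2 (adjusted p = 0.0506 and 0.0752).

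Chemokine genes fell: 6 of 7 tested were lower and none higher, with a median of -0.48. Ccl4, a chemokine gene of activated T cells, was at 65.2 and 59.9 FPKM with vehicle and 36.1 and 36.8 with TAN (-0.76 ± 0.045). Xcl1, a ligand for XCR1 on cross-presenting dendritic cells, was at 36.03 and 33.7 FPKM with vehicle and 23.4 and 22.8 with TAN (-0.57 ± 0.046). Ccl3, a close relative of Ccl4, was at 69.9 and 70.05 FPKM with vehicle and 56.5 and 57.3 with TAN (-0.29 ± 0.030). Ccl5 fell from 6.69 to 4.49 FPKM. Cxcl10, the gene of an interferon-induced chemokine, fell from 2.57 to 1.01 FPKM (-0.82 ± 0.13). Ccl5 and Cxcl10 lost their calls with no filter on low values (adjusted p = 0.166 and 0.0639). Ccl5 did not pass with no variance trend (adjusted p = 0.0773). Ccl5 lost its call without vehicle replicate 1 (adjusted p = 0.0902). Ccl5 did not pass without TAN replicate 2 (adjusted p = 0.0672).

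Of 25 tested cytokine receptor genes, 8 rose and 5 fell. Their median of 0.031 turned to -0.047 among genes with a mean of at least 5 FPKM and -0.012 without vehicle replicate 1. Il23r, the specific chain of the interleukin-23 receptor, was at 1.27 and 1.35 FPKM with vehicle and 3.28 and 3.11 with TAN (0.86 ± 0.092). Tgfbr3, a co-receptor of TGF-beta, was at 2.08 and 2.07 FPKM with vehicle and 3.70 and 3.65 with TAN (0.60 ± 0.083). Il1r2, a decoy receptor of interleukin-1, was at 0.248 and 0.614 FPKM with vehicle and 1.61 and 1.39 with TAN (0.81 ± 0.15). Il2ra, the alpha chain of the interleukin-2 receptor, rose from 298 ± 2.61 to 366 ± 0.245 FPKM. Falls were those of Il15ra, which presents interleukin-15 (39.98 to 28.4 FPKM, -0.48 ± 0.040), Il4ra (-0.28), Il10rb (-0.29) and the shared gamma chain gene Il2rg (-0.22). Il1r2, Il10rb and Il2rg lost their calls with no filter on low values (adjusted p = 0.0705, 0.0821 and 0.0507). Il10rb did not pass without vehicle replicate 2 (adjusted p = 0.0655). Il10rb lost its call without TAN replicate 2 (adjusted p = 0.0756). Of 25 genes of the interleukin-2 and STAT5 response, 12 rose and 4 fell (median 0.11). Socs2, a feedback inhibitor, was at 16.2 and 16.6 FPKM with vehicle and 27.1 and 26.6 with TAN (0.68 ± 0.044), and Tnfrsf8, Prdm1, Ikzf2 and Il2ra, described elsewhere, belong to the list as well. Cish, another feedback inhibitor of the STAT5 pathway, fell from 129 to 109 FPKM.

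Genes of the TNF superfamily divided. Of 25 tested, 4 rose and 6 fell. The median was -0.031, but 0.013 without vehicle replicate 2 and 0.020 without TAN replicate 1. After Tnfrsf8, Cd40lg, the ligand of CD40, was at 3.21 and 3.34 FPKM with vehicle and 6.68 and 5.93 with TAN (0.77 ± 0.081). Tnfsf10, which encodes the death ligand TRAIL, was at 3.46 and 3.81 FPKM with vehicle and 6.13 and 7.06 with TAN (0.71 ± 0.087). Tnfsf8, the gene of the CD30 ligand, went the opposite way to its receptor, at 9.99 and 9.54 FPKM with vehicle and 6.34 and 6.16 with TAN (-0.57 ± 0.063). Tnfsf11, the gene of RANK ligand, was at 17.1 and 16.3 FPKM with vehicle and 10.2 and 10.95 with TAN (-0.61 ± 0.057). Tnfrsf9, the gene of 4-1BB and the member with the highest level, did not pass (0.023 ± 0.019, adjusted p = 0.392).

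Of 15 tested inhibitory receptors and exhaustion factors, 2 rose and 8 fell, with a median of -0.22. Ctla4, which competes with CD28 for its ligands, was at 436 and 447 FPKM with vehicle and 722 and 735 with TAN, with a log2 change of 0.72 ± 0.021 (SE) and an adjusted p of 8.48e-07 by limma. Pdcd1, the gene of PD-1, was at 63.7 and 60.4 FPKM with vehicle and 48.1 and 46.7 with TAN (-0.38 ± 0.038). Cd160 was at 10.04 and 11.1 FPKM with vehicle and 6.89 and 6.42 with TAN (-0.59 ± 0.070), and Cd200 at 106 and 104 FPKM with vehicle and 79.3 and 85.3 with TAN (-0.35 ± 0.038). Lag3, another checkpoint receptor gene, rose slightly (0.14). Nr4a1, a nuclear receptor gene induced by T cell receptor signalling, fell by 0.35. Lag3 lost its call with no filter on low values (adjusted p = 0.0661). Lag3 did not pass with no variance trend (adjusted p = 0.083). Of 18 costimulatory and SLAM family genes, 3 rose and 6 fell (median -0.058). Icos, a relative of CD28, was at 43.4 and 45.2 FPKM with vehicle and 64.8 and 65.5 with TAN (0.55 ± 0.034). Slamf6, a SLAM receptor gene, was at 2.25 and 2.52 FPKM with vehicle and 1.24 and 1.55 with TAN (-0.50 ± 0.11). Cd6, a scavenger receptor gene, fell from 119 to 99.9 FPKM. Slamf6 lost its call with no filter on low values (adjusted p = 0.0845). Slamf6 did not pass without vehicle replicate 2 (adjusted p = 0.0741). Slamf6 lost its call without TAN replicate 1 (adjusted p = 0.0501).

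Immediate-early and feedback genes of receptor signalling fell in 13 of 30 tested cases and rose in 3, with a median of -0.12. Egr1, an immediate-early zinc finger factor, was at 13.4 and 13.3 FPKM with vehicle and 7.50 and 6.79 with TAN (-0.82 ± 0.064). Egr3 was at 3.01 and 2.79 FPKM with vehicle and 1.26 and 1.40 with TAN. Dusp6, a phosphatase of ERK kinases, was at 11.3 and 10.7 FPKM with vehicle and 6.45 and 6.80 with TAN (-0.65 ± 0.063). Egr2 fell from 15.04 to 9.68 FPKM, and Ier3, another early response gene, rose from 34.9 to 46.2 FPKM. Of 19 NF-kappaB genes, 10 fell and 1 rose (median -0.18), among them the inhibitor genes Nfkbia (57.4 to 47.5 FPKM, -0.27 ± 0.038) and Nfkbie (-0.36 ± 0.053), which NF-kappaB itself induces, and Map3k14, which encodes the kinase NIK of the alternative pathway (-0.34 ± 0.069). Bcl3 was the exception that rose (0.26). In the receptor complex and its proximal signalling, 7 of 22 tested genes fell and 4 rose (median -0.058): the adaptor gene Lcp2 fell from 82.5 to 67.4 FPKM, while Grap2, another adaptor gene, rose from 52.6 to 63.4 FPKM. Cd8a fell by 0.13, and Thy1, the member with the highest level, did not pass (0.025 ± 0.018, adjusted p = 0.331). Egr2, Map3k14, Bcl3 and Cd8a lost their calls with no filter on low values (adjusted p = 0.0633, 0.0937, 0.109 and 0.089). Map3k14 did not pass without vehicle replicate 1 (adjusted p = 0.0569). Bcl3 and Cd8a lost their calls with no variance trend (adjusted p = 0.0628 and 0.099). Bcl3 and Cd8a did not pass without vehicle replicate 2 (adjusted p = 0.0688 and 0.0744). Bcl3 lost its call without TAN replicate 2 (adjusted p = 0.06).

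The cytolytic machinery moved in both directions, with log2 changes from -0.45 to 0.42 among the granule genes tested. Of 15 tested granule genes, 5 rose and 6 fell, with a median of -0.038. Gzmb, the gene of granzyme B, was at 4312 and 4269 FPKM with vehicle and 4731 and 4681 with TAN (0.13 ± 0.015, adjusted p = 0.000634). Prf1, the gene of perforin, was at 195 and 191 FPKM with vehicle and 177 and 175 with TAN (-0.13 ± 0.023, adjusted p = 0.00515). Rab27a, which docks granules at the membrane, rose from 29.2 ± 0.717 to 39.3 ± 0.0518 FPKM, and Nkg7, a granule membrane protein gene, from 341 ± 2.88 to 409.7 ± 0.353 FPKM. Unc13d, the gene of the granule priming factor Munc13-4, fell from 60.7 ± 0.894 to 50.6 ± 0.310 FPKM and Ctsw, a cathepsin gene of cytolytic cells, from 28.9 ± 1.12 to 20.9 ± 0.120 FPKM. Of 6 tested NK-type lectin genes, 4 fell and none rose (median -0.39): Klrk1, the gene of the activating receptor NKG2D, was at 36.8 and 35.8 FPKM with vehicle and 23.2 and 20.3 with TAN (-0.72 ± 0.061). Klrd1, which encodes CD94, was at 14.5 and 14.9 FPKM with vehicle and 10.1 and 10.98 with TAN (-0.44 ± 0.059). The early activation marker Cd69 was at 74.2 and 78.1 FPKM with vehicle and 55.04 and 58.7 with TAN (-0.42 ± 0.041). Gzmb lost its call with no filter on low values (adjusted p = 0.0643). Gzmb and Prf1 did not pass with no variance trend (adjusted p = 0.0728 and 0.0745).

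Transcription factors of effector and helper lineages had the highest median of the lists with more than 5 tested genes, 0.25, and 13 of 21 rose while 2 fell. Prdm1, which encodes Blimp-1, was at 2.59 and 2.51 FPKM with vehicle and 5.01 and 5.04 with TAN (0.76 ± 0.078). Vdr, the vitamin D receptor gene, was at 1.25 and 1.22 FPKM with vehicle and 2.59 and 2.99 with TAN (0.76 ± 0.099). Ikzf4 and Ikzf2, which encode the Ikaros family members Eos and Helios, rose from 6.64 ± 0.336 to 11.5 ± 0.355 FPKM and from 6.41 ± 0.261 to 9.72 ± 0.0166 FPKM. Eomes, a T-box factor gene, rose from 13.8 to 17.04 FPKM. Tbx21, which encodes T-bet, an inducer of Ifng, fell from 45.7 ± 1.07 to 38.7 ± 0.462 FPKM (-0.23 ± 0.036), and Irf4 from 166 to 149 FPKM. Of 22 naive and memory genes, 7 rose and 8 fell (median -0.041, but 0.0048 without TAN replicate 1). Dapl1, a gene of naive T cells, was at 92.4 and 92.3 FPKM with vehicle and 53.7 and 53.3 with TAN (-0.78 ± 0.029). S1pr1, the receptor for egress from lymphoid tissue, was at 2.89 and 2.81 FPKM with vehicle and 5.67 and 5.42 with TAN (0.76 ± 0.076). Myb and Il7r rose from 7.02 to 11.1 FPKM and from 23.3 to 27.8 FPKM, and Tcf7 did not pass (-0.10 ± 0.035, adjusted p = 0.063). Irf4 lost its call with no variance trend (adjusted p = 0.0571).

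Of 28 tested homing receptors, integrins and adhesion molecules, 8 rose and 9 fell (median 0.057, but -0.036 among genes with a mean of at least 5 FPKM and -0.0045 without vehicle replicate 2). Ccr4, a receptor of skin-homing and helper cells, was at 23.6 and 25.8 FPKM with vehicle and 35.4 and 35.4 with TAN (0.50 ± 0.048). Ccr6 moved the other way, at 13.2 and 15.6 FPKM with vehicle and 7.20 and 6.65 with TAN (-0.95 ± 0.082). Ccr7, the lymph node homing receptor, fell from 214 to 174 FPKM, and Icam1 from 33.3 to 26.04 FPKM, and Cd24a rose from 34.7 to 47.5 FPKM.

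Of 43 tested genes of the cytoskeleton, nuclear lamina and annexins, 22 rose and 4 fell, with a median of 0.10. Beside Emp1 and Lmna, Myo1f, an unconventional myosin gene, was at 4.46 and 3.47 FPKM with vehicle and 8.61 and 7.80 with TAN (0.90 ± 0.10). S100a6, the gene of a calcium-binding protein, was at 2.41 and 3.09 FPKM with vehicle and 4.53 and 6.10 with TAN (0.75 ± 0.13). Falls were smaller: Plec, which encodes the crosslinker plectin, fell from 35.6 to 29.6 FPKM (-0.26 ± 0.042) and Anxa2, an annexin gene, from 278 to 248 FPKM (-0.16 ± 0.021). Myo1f and S100a6 lost their calls with no filter on low values (adjusted p = 0.0512 and 0.102). Anxa2 did not pass with no variance trend (adjusted p = 0.0514). Of 14 semaphorin, plexin and guidance genes, 3 rose and 3 fell (median 0.030, but -0.026 without vehicle replicate 2), and after Sema4f the next rise was that of Sema4g (0.752 to 1.52 FPKM, 0.52 ± 0.11). Sema4g lost its call with no filter on low values (adjusted p = 0.0541). Sema4g did not pass without vehicle replicate 2 (adjusted p = 0.0622). Of 27 calcium transport genes, 6 rose and 3 fell (median 0.059): Itpr1, a calcium release channel of the endoplasmic reticulum, rose, at 29.9 and 30.4 FPKM with vehicle and 43.6 and 41.8 with TAN (0.49 ± 0.039). Orai1, the pore of store-operated entry, fell, at 41.7 and 40.9 FPKM with vehicle and 32.3 and 32.4 with TAN (-0.34 ± 0.036). Of 12 genes of the TGF-beta response, 2 rose and 5 fell (median -0.063), with Furin, a proprotein convertase gene, at 139 and 136 FPKM with vehicle and 219 and 214 with TAN (0.65 ± 0.026).

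**Figure D4:**
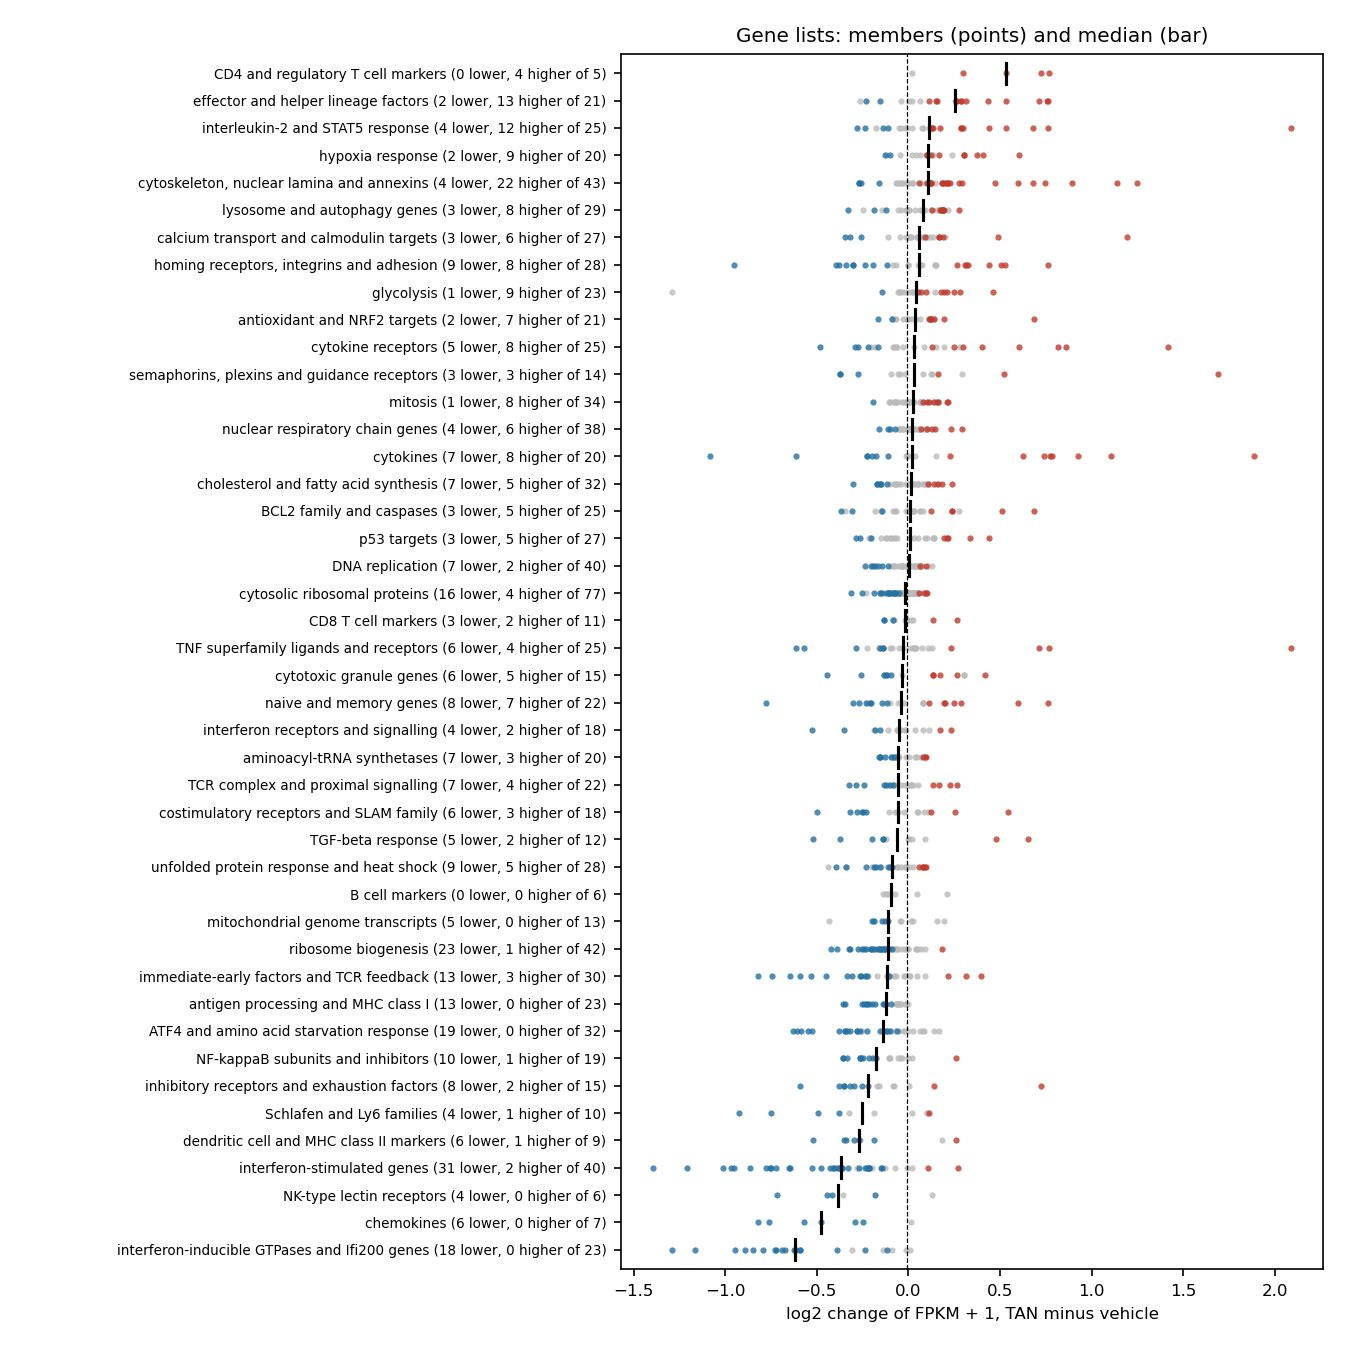
Log2 change of FPKM + 1, TAN minus vehicle (horizontal axis), of each tested member of the lists with at least 5 tested genes; red passed the test as higher, blue as lower, grey did not pass, the black bar is the median and the dashed line the median of all genes tested. Interferon-inducible GTPases lie lowest with a median of -0.62, and the lists of CD4 and regulatory T cell markers and of lineage factors lie highest.

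Metabolic groups moved by small amounts. The ATF4 and amino acid starvation response fell, with 19 of 32 lower, none higher and a median of -0.14: Ddit3, which encodes CHOP, was at 25.7 and 29.7 FPKM with vehicle and 17.5 and 17.4 with TAN (-0.63 ± 0.066). Cth, the gene of cystathionine gamma-lyase, fell from 30.4 ± 0.452 to 20.5 ± 0.0992 FPKM, Cebpb, which encodes the factor C/EBP-beta, from 35.8 to 23.5 FPKM and the neutral amino acid transporter gene Slc1a4 from 10.6 to 8.54 FPKM. Cebpb and Slc1a4 lost their calls with no filter on low values (adjusted p = 0.0569 and 0.0617). Slc1a4 did not pass without vehicle replicate 1 (adjusted p = 0.0538). Slc1a4 lost its call without TAN replicate 2 (adjusted p = 0.0551). The ATF4 element of the motif search was found in 8 of the 26 promoters of this list (30.8%). Of 28 chaperones and other genes of the heat shock and unfolded protein responses, 9 fell and 5 rose (median -0.092), with the chaperone gene Hspa5 at 607 and 622 FPKM with vehicle and 477 and 493 with TAN (-0.34 ± 0.023). Of 20 aminoacyl-tRNA synthetase genes, 7 fell and 3 rose, with the largest change in Farsa (-0.16; median -0.057), and none of these calls was made in every alternative setting. Ribosome biogenesis fell in 23 of 42 genes and rose in 1 (median -0.11), with Ppan at 322 and 321 FPKM with vehicle and 244 and 237 with TAN (-0.42 ± 0.023). Nop2, an rRNA methyltransferase gene, fell from 213 to 170.4 FPKM, and 11 of the falls were called in every alternative setting. The 77 ribosomal protein genes had a median of -0.018, with 16 lower and 4 higher, none of them in every alternative setting. Over all tested genes at 100 FPKM or more, 42.2% were called.

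Among energy genes, 9 of 23 glycolysis genes rose and 1 fell (median 0.043), and 9 of 20 hypoxia genes rose and 2 fell (median 0.11). Ddit4, an inhibitor of mTORC1 induced by hypoxia and other stress, was at 97.9 and 97.5 FPKM with vehicle and 132 and 128 with TAN (0.41 ± 0.027). Hilpda and Ero1l rose from 52.4 to 68.2 FPKM and from 162 to 200.3 FPKM. Eno2 rose by 0.46 and Pgam1 by 0.28, Slc2a3, a glucose transporter gene, fell by 0.15, and Ldha, the member with the highest level, did not pass (0.019 ± 0.016, adjusted p = 0.418). Gapdh, which is named only because of its spread, was at 566 and 620.4 FPKM with vehicle and 101 and 579 with TAN and did not pass (adjusted p = 0.164), with TAN replicate 1 far under the other 3 libraries. Of 38 nuclear respiratory chain genes, 6 rose and 4 fell (median 0.018), with Uqcrfs1, the Rieske protein gene of complex III, higher, from 167 to 205 FPKM. Of 13 mitochondrial genome transcripts, 5 fell and none rose (median -0.11), and these transcripts together made up 8.15% and 8.34% of all FPKM with vehicle and 8.07% and 8.21% with TAN. Cholesterol and fatty acid synthesis had 5 higher and 7 lower of 32 (median 0.013, but -0.0032 without TAN replicate 1), with Scd2, a desaturase gene, higher, from 267 to 315 FPKM, and Fasn, fatty acid synthase, lower, from 154 to 125 FPKM. Among 21 antioxidant genes 7 rose and 2 fell (median 0.038), with Gstm1, a glutathione transferase gene, at 2.95 and 3.03 FPKM with vehicle and 5.10 and 5.74 with TAN (0.69 ± 0.083). Eno2 lost its call with no filter on low values (adjusted p = 0.0802). Pgam1 did not pass with all 6 libraries in the fit (adjusted p = 0.253). Slc2a3 lost its call with no variance trend (adjusted p = 0.0605).

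Of 40 replication genes, 7 fell and 2 rose (median 0.0025, but -0.0034 without vehicle replicate 1, -0.0020 without vehicle replicate 2 and -0.0022 without TAN replicate 2), with the licensing factor genes Cdc6 and Cdt1 lower, from 35.4 to 29.9 FPKM and from 103 to 89.4 FPKM. Of 34 mitosis genes, 8 rose and 1 fell (median 0.023), none in every alternative setting, while Mki67, a marker of dividing cells, did not pass (0.023 ± 0.024, adjusted p = 0.517). Of 27 p53 targets, 5 rose and 3 fell, with a median of 0.0079. This median had no stable sign, being -0.026 among genes with a mean of at least 5 FPKM, -0.014 with quantile normalisation, -0.012 without vehicle replicate 1, -0.013 without TAN replicate 1 and -0.0076 without TAN replicate 2. Cdkn1a, a cell cycle inhibitor gene, was the only one called in every alternative setting, at 53.6 and 52.8 FPKM with vehicle and 73.9 and 71.2 with TAN (0.44 ± 0.033). Among 25 genes of the BCL2 family and caspases, 5 rose and 3 fell (median 0.011, but -0.0061 without vehicle replicate 1 and -0.020 without TAN replicate 2): Casp6, an executioner caspase gene, was at 12.2 and 10.4 FPKM with vehicle and 18.9 and 18.7 with TAN (0.69 ± 0.070). Bcl2l2, which encodes the survival protein BCL-W, was at 8.22 and 8.95 FPKM with vehicle and 12.3 and 12.99 with TAN (0.51 ± 0.063). Lysosome and autophagy genes rose in 8 and fell in 3 of 29 cases (median 0.077), with the cathepsin gene Ctsz higher, from 190.1 to 216 FPKM.

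Genes that also mark other cells moved as follows; in these bulk samples fewer cells of a type and less RNA per cell cannot be told apart. Among 9 tested markers of dendritic cells or class II presentation, 6 fell and 1 rose (median -0.27). Cd74, the invariant chain gene, was at 34.8 and 36.03 FPKM with vehicle and 24.9 and 23.8 with TAN (-0.52 ± 0.042). The list's summed level was 834 and 845 FPKM with vehicle and 732 and 717 FPKM with TAN, mostly from Irf8, Bst2 and Batf3, which T cells also express. Xcr1, Clec9a and Siglech stayed under 1 FPKM in all 4 libraries, as did Itgax and Flt3, which reached 0.916 and 0.484 FPKM. Zbtb46, another gene of the list, was at 1.93 and 1.51 FPKM with vehicle and 1.07 and 1.45 with TAN. Class II genes were present in both groups. H2-Ab1 was at 33.8 and 33.0 FPKM with vehicle and 29.5 and 28.9 with TAN. H2-Aa was at 6.89 and 5.83 FPKM with vehicle and 5.01 and 4.95 with TAN, and H2-Eb1 at 6.52 and 8.01 against 5.21 and 5.81. H2-DMa went the other way, at 6.33 and 5.53 FPKM with vehicle and 7.08 and 6.63 with TAN. Of 22 monocyte and macrophage genes 4 were tested, with a summed level of the list of 44.2 and 41.9 FPKM with vehicle and 37.7 and 36.96 FPKM with TAN. Apoe alone was called, lower, at 21.7 and 20.7 FPKM with vehicle and 16.8 and 16.6 with TAN (-0.33 ± 0.047). The list for CD4 and regulatory T cells had 5 tested genes, of which 4 rose and none fell (median 0.53), namely Cd40lg, Ctla4, Ikzf2 and Il2ra, all of which activated CD8+ T cells can express. Zbtb7b, the tested gene of the list that did not pass, was at 10.4 and 9.32 FPKM with vehicle and 9.93 and 10.07 with TAN. Cd4 and Foxp3, which define these cells, reached at most 0.156 and 0.0782 FPKM. The summed level of the list was 753 and 768 FPKM with vehicle and 1116 and 1129 FPKM with TAN. Of the NK cell genes, 2 of 10 were tested and Eomes, which CD8+ T cells express too, rose. The part of such cells in the differences was not tested.

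Further genes that belonged to no list and had at least 10 FPKM in the higher group were among the largest changes. Smox, the gene of spermine oxidase, was at 43.3 and 41.4 FPKM with vehicle and 76.7 and 70.6 with TAN (0.78 ± 0.045). Fam213a, the gene of a peroxiredoxin-like protein, was at 69.6 and 69.5 FPKM with vehicle and 121 and 122 with TAN (0.80 ± 0.027). Tnfrsf13b, which encodes the BAFF and APRIL receptor TACI, was at 19.4 and 18.7 FPKM with vehicle and 33.5 and 34.7 with TAN (0.81 ± 0.043). Tspan6, a tetraspanin gene, and Fes, a tyrosine kinase gene, rose from 12.8 to 23.1 FPKM and from 5.23 to 10.4 FPKM. The metallothionein gene Mt2 fell from 56.99 ± 9.24 to 33.2 ± 3.11 FPKM, Tgm2, which encodes a transglutaminase, from 29.4 ± 1.53 to 17.1 ± 0.789 FPKM, and Trim12a from 10.3 to 5.88 FPKM. Exons of Tgm2, Cish, Il4ra, Myb, Icam1, H2-Q4, Mt2, Cebpb, Itpr1, Lcp2, Cdkn1a and Tap1 overlap those of a gene on the opposite strand by more than 200 bases, and without a stated strand setting the reads of such pairs cannot be told apart. Transcripts of Ifng (19.9% of 50-base words), H2-Q4 (21.8%), Il2rg (27.5%), Mif (34.1%), Pgam1 (36.2%) and Eef1a1 (39.4%) share words with other genes or pseudogenes. Mt2 and Trim12a lost their calls with no filter on low values (adjusted p = 0.0692 and 0.0526). Among the 20 genes with the highest level, Eef1a1, a translation elongation factor gene, was at 8562 and 8696 FPKM with vehicle and 9384 and 9435 with TAN (0.12 ± 0.014). Actb was at 4580.4 and 4523 FPKM with vehicle and 4925 and 4841 with TAN (0.10 ± 0.016) and mt-Cytb at 5379.8 and 5456 FPKM with vehicle and 4991 and 5043 with TAN (-0.11 ± 0.015). Quantile normalisation gives genes of equal rank the same values in each library by construction. With it the log2 changes of Eef1a1 and mt-Cytb were 0, so that this scaling cannot decide on these changes of under 0.2. The log2 change of Actb was 0.105 with libraries scaled to 1 sum of FPKM (adjusted p = 0.00216 by limma). It was 0.110 with libraries centred on the median (adjusted p = 0.00119 by limma). Eef1a1 lost its call with all 6 libraries in the fit (adjusted p = 0.113). Eef1a1, Actb and mt-Cytb did not pass with no filter on low values (adjusted p = 0.103, 0.111 and 0.0952). Eef1a1, Actb and mt-Cytb lost their calls with no variance trend (adjusted p = 0.083, 0.128 and 0.105). Eef1a1, Actb and mt-Cytb did not pass with quantile normalisation (adjusted p = 1, 1 and 1), which its construction fixes in advance.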

How the data were processed

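RNA of OT-I cells was sequenced after Trizol extraction and TruSeq library preparation, per the labels' protocols. The authors deposited FPKM values, one per gene and library. Per the submitters' processing notes the build was mm10 and the tools were featureCounts 1.5.0-p3, HISAT2 2.0.5 and CASAVA. The sources used here do not give the annotation, strand setting or gene length. Since FPKM depends on the library total, abundant transcripts can move all others. Groups and replicate numbers come from the labels.

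Genes with at least 1 FPKM in 2 of the 4 libraries were tested as log2(FPKM + 1) with limma 3.58.1 in R 4.3.3 (lmFit, eBayes with a variance trend, two-sided, 2 residual and 6.17 prior degrees of freedom), with Benjamini-Hochberg adjustment over all 10254 genes and a threshold of 0.05. The procedure was tested on simulated data. A fold is the ratio of mean FPKM. A value after ± is a SD over 2 libraries for FPKM and a standard error for a log2 change. No library was dropped or imputed, and a count test was not used, since over all genes 54.2% to 55.6% of low values were whole reads within a tolerance of 0.1 (98.6% to 99.0% in genes with 1 transcript). Replicates differed by more than counting noise (chi-square per degree of freedom 2.39 for vehicle and 1.98 for TAN).

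The comparison and the 49 gene lists were chosen with earlier results of these data known. Named genes were the 15 largest rises and falls of at least 5 FPKM, up to 4 called genes per list and direction, the highest gene of each list, CD8 T cell reference genes, called genes among the 20 highest, and the 20 largest changes of at least 10 FPKM outside the lists. Cd3e, Gbp2, Tgtp2, Gm10718 and Gapdh fall outside this rule and were named after their values were seen. Coordinates and transcripts are of GENCODE M21 (GRCm38, the assembly of mm10), matched by symbol for 25295 genes, and promoters of RefSeq. The 14 alternatives were other pseudocounts, filters, scalings and models, a replicate block, and each library left out. Some genes and 1 of 6 motifs searched are not reported here.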

Additional observations from a re-analysis of the deposited data

How the results depend on the processing

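The counts of 1277 higher and 1483 lower genes stayed within 1.5 times under other pseudocounts, all 6 libraries in the fit, a filter on the mean and 3 other scalings. With no filter on low values (17504 genes) they were 395 and 471, and with no variance trend 708 and 784; the cause was not tested. Leaving out 1 library gave 715 to 835 higher and 822 to 1122 lower genes. With the replicate block the counts were 1365 and 1598, but same-numbered libraries of the groups shared only a number (correlation of deviations 0.054), so this fit is no paired analysis by design. Of the 316 named genes, 135 lost their call with no filter and 102 with no variance trend. Ldha, which did not pass, reversed to -0.057 with quantile normalisation. The share of higher among called genes was 46.3% in the fit reported, 50.3% after centring and 50.5% after quantile normalisation. With 2 libraries a group, small changes of genes under 5 FPKM are the least certain.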

Other observations

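Of 4656 genes with a mean of at least 20 FPKM over the 4 libraries, 4 had replicates that differed by more than 1 on the log2(FPKM + 1) scale, and they were looked at after their values were seen. Gapdh was lower by 2.51 in TAN replicate 1 than in TAN replicate 2, while its vehicle libraries differed by 0.13. Sumo2, which encodes a small ubiquitin-like modifier, was at 26.1 and 89.9 FPKM with vehicle and 23.1 and 154 FPKM with TAN, so that replicate 1 was the lower one in both groups. The mitochondrial transcript mt-Nd3 was at 31.2 and 77.1 FPKM with vehicle and 33.7 and 38.9 FPKM with TAN, and Ppih, a cyclophilin gene, at 44.1 and 19.2 FPKM with vehicle and 42.2 and 44.3 FPKM with TAN. None of the 4 passed the test.

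Among the predicted genes that share 50-base words with Gm10800 or Gm10722, Gm21738 was at 0.393 and 0.617 FPKM with vehicle and 3.34 and 3.80 FPKM with TAN, and Gm10801 at 0.576 and 0.0439 FPKM with vehicle and 2.08 and 2.48 FPKM with TAN. Gm10717, which was not tested, was at 0.0334 and 0.132 FPKM with vehicle and 0.567 and 1.30 FPKM with TAN. In each of these the TAN libraries lay above both vehicle libraries, and since reads can be shared among the copies the values are not independent.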
